A study of Arabidopsis thaliana with 4 samples.

Results

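The bZIP genes are the basic leucine zipper transcription factors of Arabidopsis thaliana, and the 13 described here are all those whose ATH1 probe set carries the symbol bZIP and a number for a single gene. BZIP60 was not counted among them. They are 13 of 22746 probe sets that are not controls. RefSeq gives such a symbol to 29 genes, again without BZIP60, and the other 16 were not analysed here. Symbols of the members are spelled as in RefSeq, which writes some of them in capitals.

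The arrays held RNA of whole seedlings that were 1 week old, 2 arrays for wild-type Col-0 and 2 for the mutant exo70A1-2 in the Col-0 background. The mutant carries a lesion in EXO70A1, which encodes a subunit of the exocyst, a complex that docks secretory vesicles at the cell surface. All seedlings were kept under continuous light at 22 °C on vertical agar plates. A cold period of 3 days was also recorded, the same for both genotypes. Both also shared 65% humidity, 1.6% agar and 75 seeds per plate. The labels name a single mutant allele. Whether arrays of the same genotype stand for separately grown seedlings is not stated, so a p-value here measures array-to-array spread that may be technical.

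A bZIP protein binds DNA with a stretch of basic residues and pairs with a partner through the adjoining leucine zipper, so the proteins of the family act as homodimers or heterodimers. Plant bZIP genes are sorted into lettered groups by sequence. Group S factors, many of them tied to sugar and energy status, pair with factors of group C, while group B factors sit in the endoplasmic reticulum membrane until they are cleaved. Group F factors are known for zinc supply and salt stress, group E factors for pollen development, and several group I factors for vascular and root growth. Much of the control of the best-known members lies in translation, phosphorylation or proteolysis, none of which these arrays measure.

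BZIP61 of group E rose in exo70A1-2 and was the only one of the 7 tested bZIP genes to pass (limma, adjusted p under 0.05 over 13648 probe sets). No tested member passed as lower. At an unadjusted p under 0.05 (limma) there were 2 members higher and 0 lower. The share of all tested probe sets at that unadjusted threshold is not given here. These 2 are therefore not read as a result about the family. The remaining 6 of the 13 members, among them the group E relative BZIP34, were dim on all 4 arrays and are not called. A probe set counted as dim, and was not tested, when its mean log2 signal lay under the 40th percentile, a signal of 21.9. Of all tested probe sets 16% changed, 8.54% higher and 7.5% lower, and 1 of 7 lies near the first share. The median log2 fold change of the 7 was 0.14, against -0.00086 for all tested probe sets, and their median absolute value was 0.16 against 0.24.

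Signal of BZIP61 (AT3G58120) was 104 and 150 on the Col-0 arrays and 223 and 254 on the exo70A1-2 arrays. Both mutant arrays lay above both Col-0 arrays, and the Col-0 arrays stood further apart from each other than the mutant ones in proportion to their level. The mean was 127 ± 32.4 for Col-0 against 239 ± 21.5 for the mutant (± SD over 2 arrays). This was a 1.90-fold rise with a 95% confidence interval of 1.43 to 2.53. On the log2 scale it was 0.93 with a standard error (SE) of 0.18 (limma, adjusted p = 0.0116). Each mutant array divided by each Col-0 array gave 4 ratios, from 1.49 to 2.43. By fitted log2 fold change it ranked 455 of the 13648 tested probe sets. In RNA of whole seedlings, more cells that express a gene and more RNA per cell cannot be told apart.

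Its group E relative BZIP34 (AT2G42380), a gene known for its role in pollen, had signals of 13.0 and 14.6 in Col-0 and 11.3 and 10.1 in exo70A1-2. All 4 values lay under the dim limit, so the pair of group E genes cannot be compared in their response.

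**Figure D1:**
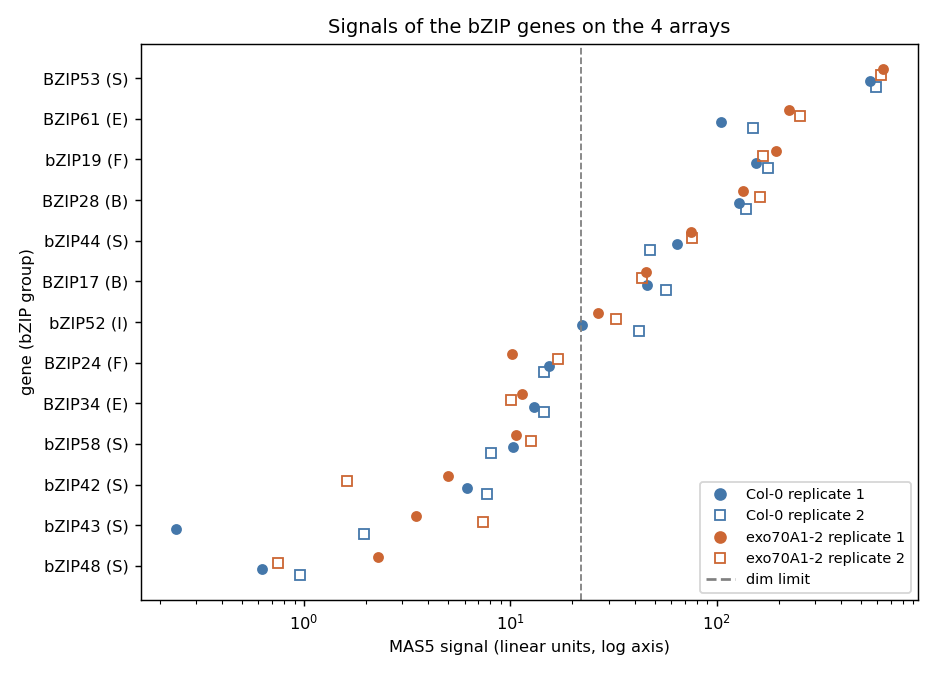
MAS5 signal on a log axis (linear units) for each of the 13 bZIP genes, with the bZIP group in brackets. Filled circles are replicate 1 and open squares replicate 2, blue for Col-0 and orange for exo70A1-2, and the dashed line is the dim limit of 21.9. The BZIP61 arrays of the mutant lie to the right of both Col-0 arrays, and 6 genes lie wholly left of the line.

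Group S had the most members, 6, of which bZIP44 and BZIP53 were tested. Both belong to the subgroup whose translation is repressed by sucrose through a conserved upstream reading frame, and neither passed. bZIP44 (AT1G75390), known for a role in seed germination, had signals of 64.5 and 47.3 in Col-0 and 74.9 and 76.1 in exo70A1-2. The mutant arrays lay close together and above both Col-0 arrays. Its log2 fold change was 0.45 (SE 0.19; limma, adjusted p = 0.141), with an interval of 1.01 to 1.84-fold before adjustment. Without Col-0 replicate 1, the higher of its Col-0 arrays, the log2 fold change was 0.68. Without Col-0 replicate 2 it was 0.23.

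BZIP53 (AT3G62420), a partner of group C factors that is known from seed maturation and proline breakdown, had signals of 554 and 595 in Col-0 and 641 and 623 in exo70A1-2. The mutant arrays were again the higher ones, by little. Its log2 fold change was 0.14 (SE 0.11; limma, adjusted p = 0.413), and the interval of 0.930 to 1.30-fold leaves out a rise as large as that fitted for BZIP61. The 4 remaining group S genes, bZIP42, bZIP43, bZIP48 and bZIP58, were dim. Their signals were 6.18, 7.70, 5.01 and 1.61 for bZIP42, in the order of Col-0 replicates 1 and 2 and then exo70A1-2 replicates 1 and 2. In the same order they were 0.240, 1.95, 3.49 and 7.39 for bZIP43. For bZIP48 they were 0.626, 0.954, 2.28 and 0.749, and for bZIP58 10.3, 8.02, 10.7 and 12.6. At such levels MAS5 values are noisy, and no fold is given for these genes.

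The group B genes BZIP17 and BZIP28 encode factors that are held in the endoplasmic reticulum membrane and freed by the proteases S1P and S2P, BZIP28 in the unfolded protein response and BZIP17 also under salt stress. Signal of BZIP17 (AT2G40950) was 45.8 and 57.0 in Col-0 and 45.5 and 43.5 in exo70A1-2. The mutant arrays lay lower, but the highest of them came within a small margin of the lowest Col-0 array. Its log2 fold change was -0.20 (SE 0.19; limma, adjusted p = 0.511). Signal of BZIP28 (AT3G10800) was 128 and 139 in Col-0 and 135 and 163 in exo70A1-2, so the genotypes overlapped. Its log2 fold change was 0.16 (SE 0.15; limma, adjusted p = 0.515). The intervals ran from 0.649 to 1.17-fold for BZIP17 and from 0.883 to 1.41-fold for BZIP28.

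Group F was represented by bZIP19, an activator of zinc uptake genes under zinc deficiency, and BZIP24, which is known from salt stress. bZIP19 (AT4G35040) had signals of 155 and 177 in Col-0 and 193 and 168 in exo70A1-2. These overlapped, and the fitted log2 fold change was 0.12 (SE 0.14; limma, adjusted p = 0.608), with an interval of 0.870 to 1.35-fold. BZIP24 (AT3G51960) was dim, at 15.5 and 14.6 in Col-0 and 10.1 and 17.0 in exo70A1-2. None of these reached the dim limit.

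The group I gene bZIP52 (AT1G06850) lay closest to the dim limit of those tested, with signals of 22.3 and 42.3 in Col-0 and 26.7 and 32.6 in exo70A1-2. The Col-0 arrays spanned both mutant arrays. Its log2 fold change was -0.06 (SE 0.31; limma, adjusted p = 0.921). It turned to 0.40 without Col-0 replicate 2 and to 0.09 without exo70A1-2 replicate 1. The interval, from 0.592 to 1.56-fold, was the widest of the 7 tested genes on the log2 scale.

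Across the 7 tested genes, 3 had both mutant arrays above both Col-0 arrays, 1 had both below, and 3 overlapped. Of all tested probe sets 60.6% had genotypes that did not overlap, 30% higher and 30.6% lower, so 4 of 7 is near the background.

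**Figure D2:**
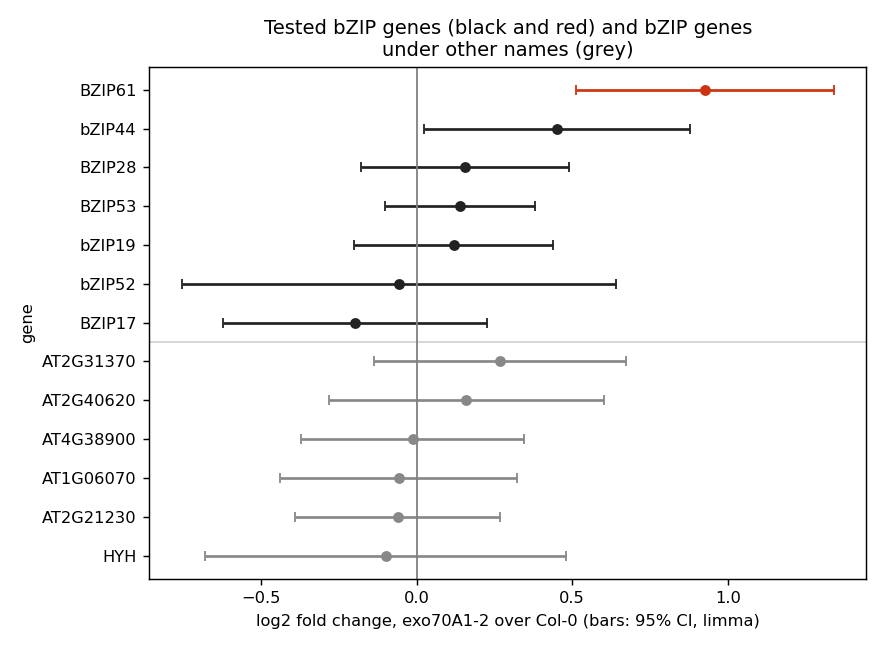
Log2 fold change of exo70A1-2 over Col-0 with 95% confidence intervals from limma, for the 7 tested bZIP genes above the grey line and 6 bZIP genes with other names below it. BZIP61, in red, passed the test, and the interval of bZIP44 also lies above 0 before adjustment for the 13648 probe sets.

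A further 10 bZIP genes carry other names on the array and were found through RefSeq synonyms or a list of known bZIP names, and 6 of these were tested. None passed (limma), where 16% of all tested probe sets did. At an unadjusted p under 0.05 (limma) there were 0 of the 6. The share of all tested probe sets at that threshold is not given here, so this count is not read as a result. Their log2 fold changes lay between -0.10 and 0.27, with a median of -0.04. Of the 6, 5 are group I genes, which together with bZIP52 made 6 tested genes of that group without a call. bZIP29 (AT4G38900), linked to root development and the cell wall, stood at -0.01, with signals of 79.0 and 78.8 in Col-0 and 85.1 and 71.8 in the mutant. bZIP18 (AT2G40620) stood at 0.16, bZIP30 (AT2G21230) at -0.06, bZIP69 (AT1G06070) at -0.06 and PosF21 (AT2G31370) at 0.27, and the lowest adjusted p of the 6 genes was 0.344, for PosF21. HYH, the homologue of the light response factor HY5, stood at -0.10. The other 4 were dim, with no signal above 10.7: the flowering factor gene FD, the embryo gene EEL, and bZIP31 and bZIP33.

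**Figure D3:**
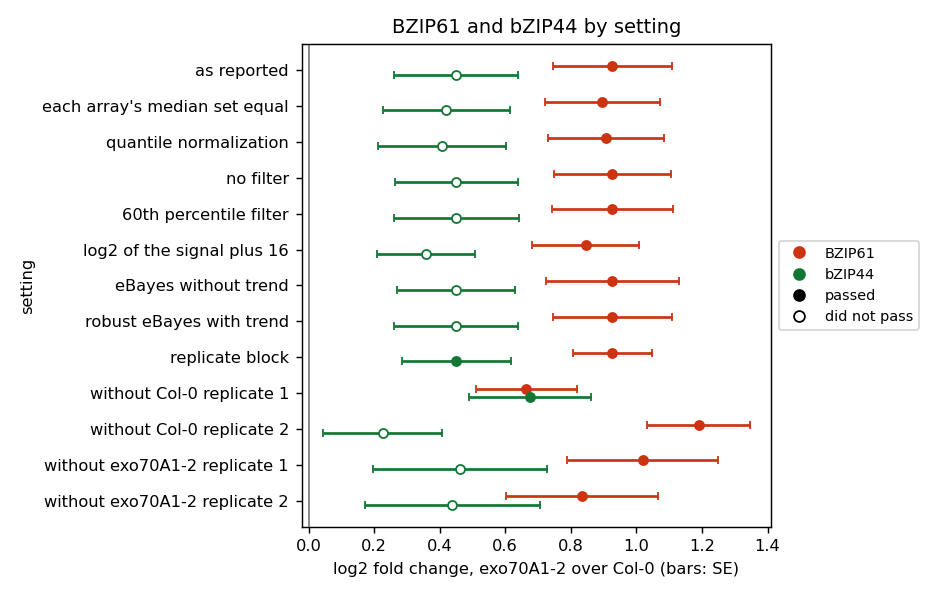
Log2 fold change with its standard error for BZIP61 (red) and bZIP44 (green) as reported and under 12 alternatives, filled where the adjusted p was under 0.05. BZIP61 is filled in every line, between 0.66 and 1.19, while bZIP44 is filled with the replicate block and without Col-0 replicate 1.

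Genes that act in the pathways of these factors were taken from 8 lists, with 179 entries. Only 23 of the listed genes were matched by name to a single-gene probe set, and 20 were tested. With 8730 probe sets unnamed here, the unmatched genes are not shown to be absent from the array. The counts per list cover only the matched genes. Of the 20 tested, 8 rose and 1 fell, against 16% of all tested probe sets that changed. The lists were drawn up with earlier results of these data known, and several of their members had already been seen to change, so the count says nothing about bZIP action.

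The list of low-energy and sugar responses, linked to group C and S factors, had 4 tested genes, of which 3 rose. They all encode enzymes of leucine breakdown in mitochondria. MCCA, a subunit of methylcrotonyl-CoA carboxylase, had signals of 70.5 and 87.1 in Col-0 and 243 and 356 in exo70A1-2. It rose by 1.91 on the log2 scale, with a standard error of 0.20 (limma, adjusted p = 0.000676). IVD, isovaleryl-CoA dehydrogenase, rose by 1.62 (adjusted p = 0.00132), and MCCB, the other carboxylase subunit, by 0.93 (adjusted p = 0.00196). The genotypes did not overlap for any of these 3 genes, which held for 60.6% of all tested probe sets. EXO, a sugar- and brassinosteroid-responsive gene, stood at 0.61 with overlapping arrays (adjusted p = 0.268), and at -0.0025 without Col-0 replicate 1. It passed without Col-0 replicate 2 (adjusted p = 0.000872) and without exo70A1-2 replicate 1 (adjusted p = 0.0410), and stood at 0.28 without exo70A1-2 replicate 2 (adjusted p = 0.661). The list of SnRK kinases, which phosphorylate group C factors, had 2 tested genes. AKINBETA1, a regulatory subunit of SnRK1, rose by 1.16 with a standard error of 0.18 (adjusted p = 0.00409), and RAPTOR1, of the opposing TOR complex, stood at 0.03.

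For the group B factors, none of 3 tested genes of protein folding and factor cleavage passed. The chaperone gene CRT1b stood at -0.24 (limma, adjusted p = 0.154, and unadjusted p = 0.0477). S1P, the gene of the protease that cleaves BZIP17 and BZIP28, stood at 0.27 (adjusted p = 0.297), with signals of 57.2 and 65.0 in Col-0 and 79.0 and 68.8 in exo70A1-2. The third gene, ATERDJ3B, stood at -0.16. The zinc list had 1 tested gene, the transporter gene ZIP6, at 0.04. ZIP9, a target of bZIP19, was dim, at 16.6 on both Col-0 arrays and 11.9 and 7.22 on the mutant arrays.

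The abscisic acid and dehydration list, which belongs with group A factors that have no member among the 13, had 2 tested genes, and both rose. LTI30, a dehydrin gene, rose by 0.93 and COR15A by 1.09. In the list around the group D (TGA) factors GSTU25, a glutathione transferase gene, rose by 0.62, and ROXY2 stood at 0.29. The light list had 1 tested gene, DFR, at 0.08. Of 5 tested wall growth genes XTH19 rose by 1.38 and EXPA15 fell by 0.97, while XTH18 at 0.72 and EXPA9 at 0.50 did not pass (adjusted p = 0.0716 and 0.0645). When 1 array was left out, XTH18 passed without Col-0 replicate 2 (adjusted p = 0.0390) and without exo70A1-2 replicate 1 (0.00165), and stood at 0.32 without exo70A1-2 replicate 2 (0.501). EXPA9 passed without Col-0 replicate 2 (adjusted p = 0.0189), and its adjusted p was 0.178 without Col-0 replicate 1 and 0.349 without exo70A1-2 replicate 2.

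**Figure D4:**
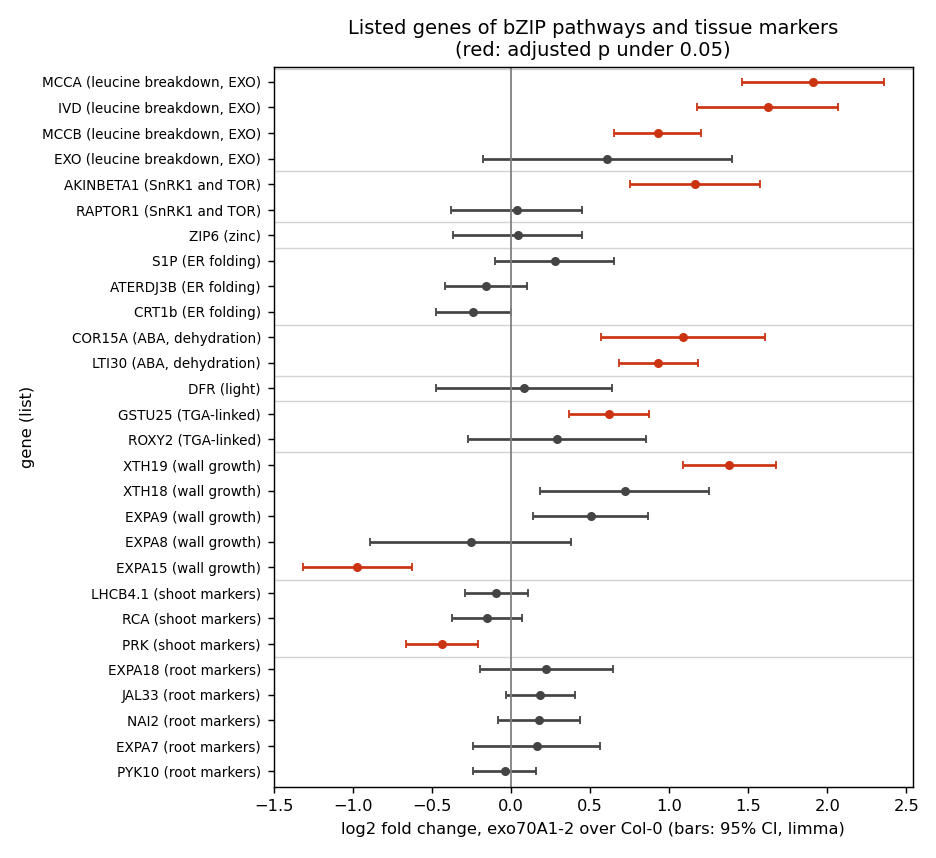
Log2 fold change of exo70A1-2 over Col-0 with 95% confidence intervals from limma, for the tested genes of the 8 pathway lists and of the shoot and root marker lists. Red marks an adjusted p under 0.05, as for MCCA at 1.91 and EXPA15 at -0.97.

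The labelled tissue is the whole plant. Of the 10 listed shoot markers 3, and of the 12 root markers 5, were matched by name to a single-gene probe set. All of these were tested and lay above the dim limit on all arrays. Only probe sets with a mean at or above that limit were tested, so this is nearly fixed and does not check the label. Of 3 tested shoot markers PRK, of the Calvin cycle, fell by 0.44 (limma, adjusted p = 0.0207), while RCA stood at -0.16 and LHCB4.1 at -0.09. Of 5 tested genes listed as root markers none passed, where 16% of all tested probe sets did. PYK10 stood at -0.04, NAI2 at 0.18, JAL33 at 0.18, EXPA7 at 0.16 and EXPA18 at 0.22. At an unadjusted p under 0.05 (limma) there were 0, and the share of all tested probe sets at that threshold is not given. Whether these genes are confined to root was not tested. The part of tissue proportions in the rise of BZIP61 was not tested. The level of EXO70A1 was not analysed here, so it does not check the genotype labels. Median signals of the arrays lay between 37.3 and 38.8, and log2 signals of replicate arrays correlated, across tested probe sets, at 0.980 in Col-0 and 0.987 in exo70A1-2.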

How the data were processed

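RNA of 2 Col-0 and 2 exo70A1-2 seedling samples was hybridised to ATH1 arrays. The deposited values are linear intensities, 1 for each probe set on each array, which the authors made with MAS5 and GCOS, per the submitters' processing notes. The values show that each array was scaled to a mean of 100 with 2% trimmed at each end. Versions are not given in the sources used here. MAS5 treats each array alone, and its low signals are noisy.

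From these values log2 was taken with no constant and no further scaling. The 64 control probe sets were left out, and 13648 probe sets whose mean log2 signal reached the 40th percentile were tested with limma 3.58.1 in R 4.3.3 (lmFit, eBayes with an intensity trend, two-sided, Benjamini-Hochberg adjustment over all of them, threshold 0.05). The fit was run on simulated arrays with independent noise, which checks the code and not how well the model suits these data. Names came from the probe annotation, updated through RefSeq (TAIR10.1). Of the probe sets, 13513 had 1 gene, 503 several and 8730 were unnamed here.

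The bZIP genes, the 11 gene lists and the tests were chosen with earlier results of these data known. All members are given. List genes named are up to 4 that passed and up to 2 that did not, per list, and ATERDJ3B, the marker genes and the other bZIP genes besides. Group letters follow the published bZIP classification. Alternatives were other scalings, filters, variance priors and thresholds, 16 added to each signal, the replicate number as a block, and leaving out each array. Figures were drawn with matplotlib 3.10.9.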

Additional observations from a re-analysis of the deposited data

How the results depend on the processing

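The rise of BZIP61 passed under all 12 alternatives run for it, with log2 fold changes from 0.66 to 1.19 and adjusted p values up to 0.0361, the highest without the intensity trend. The number of bZIP genes higher in exo70A1-2 was 2 with the replicate number as a block, bZIP44 being the second gene (limma, adjusted p = 0.0436). The number lower was 0 in all 13 alternatives. With no filter the 6 dim members were tested too and none passed, the lowest adjusted p among them being 0.198, for bZIP43. No label ties arrays of equal replicate number together, so they were not taken as pairs. The difference of replicates 1 and 2 correlated at 0.28 between the genotypes across tested probe sets. Whether arrays of equal replicate number share a batch was not tested. The block raised the share of all probe sets called from 16% to 31.3%. The list genes that changed numbered 9, and 13 with the block. At a threshold of 0.10 they numbered 11, where the share of all tested probe sets called was 24.1%. The 9 kept their calls in every alternative. The genes gained with the block were EXO (adjusted p = 9.92e-05), XTH18 (0.000511), EXPA9 (0.00811) and CRT1b (0.0487). Directions that turned on leaving out 1 array were those of genes near 0 or with spread arrays: bZIP52 ran from -0.52 to 0.40, EXO from -0.0025 to 1.22, RAPTOR1 from -0.16 to 0.23, ZIP6 from -0.0440 to 0.12, DFR from -0.15 to 0.31 and ROXY2 from -0.0158 to 0.60. RAPTOR1 also stood at -0.0167 after quantile normalization. The cause was not tested. Where an array was left out, the single one remaining for its genotype is assumed to vary like the others. With 2 arrays per genotype and MAS5 values near background, the dim genes have no usable fold.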
